A study of Mus musculus with 3 samples.

Results

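The contacts described here are di-tags of Capture Hi-C (CHi-C) libraries whose ends both lie in highly covered regions of the same mouse chromosome. A 10 kb bin on chromosomes 1 to 19 was taken as captured when its number of di-tag ends reached the 90th percentile of covered bins in each of the 3 libraries, and a di-tag belonged to the set when its ends lay in different captured bins at least 20 kb apart. In the lists with duplicates removed, 503046 of 9376907 di-tags of Sample 3 met these conditions, against 219741 of 8596799 in Sample 4 and 181909 of 8821161 in Sample 5. They made up 11.3%, 7.97% and 7.37% of the autosomal cis di-tags, with a mean of 8.89% ± 2.14 (SD, n = 3). All 3 libraries form 1 group, and nothing in the labels says whether they came from separate cultures. The strain is C57BL/6 and the cell type label embryonic stem cells in each, fixed with 2% formaldehyde, with no treatment or genotype to compare. The labels of Sample 3 conflict: its source is given as foetal liver cells, its cell type, like the text of the study, as embryonic stem cells. Which is right was not tested.

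In CHi-C, cross-linked chromatin is cut with a restriction enzyme and ligated, so that fragments close together in the nucleus become joined, and the joined fragments that hold a chosen region are then enriched with RNA baits. A sequenced pair of fragments is a di-tag: cis when both ends map to 1 chromosome and trans when they map to different ones. Contacts within a chromosome become rarer with distance. Chromatin is folded into local domains within a larger chromosome territory, and active and inactive stretches also tend to keep to their own kind over long distances. A di-tag between captured regions was open to enrichment from either end, so pairs of such regions are the best sampled in a library of this type.

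A total of 17920 bins counted as captured, 7.88% of the 227422 bins covered in any library, and they held 36.8%, 32.1% and 31.0% of the autosomal di-tag ends of Samples 3, 4 and 5. The bins were chosen by measured coverage, all ends of each bin counted, and not from a list of baits, so a bin here is captured in the sense of highly covered. The thresholds were 178, 151 and 152 ends, and 27896 bins reached them in at least 1 library. A bin just inside the rule, chr1:59960000-59969999 (mm9), had 178, 188 and 186 ends, whereas one just outside, chr1:34460000-34469999, had 177, 179 and 256. Captured bins numbered from 416 on chromosome 18 to 1799 on chromosome 11. In 1 stretch, chr11:3030000-3099999 near the start of the chromosome, coverage was very high and lay mostly in trans ends. The bin chr11:3050000-3059999 had 5362, 6637 and 6957 ends, of which 4202, 5600 and 5985 were trans, while the median captured bin had 323, 263 and 261 ends with 152, 164 and 175 trans. The calls, the far pairs shared between libraries, the block classes and the chromosome ratios are given with and without such bins below.

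The library labelled Sample 3 stood apart from the others before any contact was tested. Cis di-tags on chromosomes 1 to 19 were 47.3% of its list, against 32.1% in Sample 4 and 28.0% in Sample 5. The median distance between captured ends was 1320 kb in Sample 3 and 200 kb in both of the others. Di-tags confined to a single captured bin were fewer in it, at 105533 against 191457 and 185955, whereas contacts from 20 to 100 kb were not, at 83767 against 79190 and 65540.

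Contacts between captured bins fell steadily with distance up to 1 Mb in every library. At 20 to 50 kb there were 3973, 4360 and 3654 di-tags per 1000 possible pairs in Samples 3, 4 and 5. At 0.5 to 1 Mb there remained 325.2, 121.6 and 96.9, and at 10 to 20 Mb 47.1, 7.42 and 6.05. Taken over 20 to 50 kb together the libraries were therefore close, and at 10 to 20 Mb they were well apart, with Sample 3 the highest. Within 20 to 50 kb their order changed. Near 0.0224 Mb the rates were 5056, 6643 and 5634 per 1000 pairs, with Sample 3 the lowest. Near 0.0448 Mb they were 2771, 2381 and 1960, with Sample 3 the highest. The slope of log10 contacts per possible pair on log10 distance from 20 kb to 1 Mb, called the decay exponent here, was -0.77, -1.08 and -1.09, with a mean of -0.98 ± 0.18 (SD, n = 3). Without Sample 3, with bins chosen on the other libraries alone, it was -1.08.

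The rate of trans di-tags between captured bins gives a reference for contact without proximity along the chromosome. It was 2.16, 1.92 and 1.97 di-tags per 1000 possible trans pairs, so the libraries differed little in it. Relative to this rate, contacts at 20 to 50 kb were 1838, 2274 and 1859 times as frequent. They came down to 10 times the trans rate at 31.9 Mb in Sample 3, but already at 2.67 Mb in Sample 4 and 2.36 Mb in Sample 5. Over 100 Mb the ratio was 0.921, 1.19 and 1.18, so contacts at that range were below the trans rate in Sample 3 and above it in the others. Neither rate is weighted by coverage, and only chromosomes longer than 100 Mb hold such pairs, so the bins behind both rates differ. The curve of Sample 3 also had another shape. Its exponent from 10 to 32 Mb was -0.73 and from 32 to 100 Mb -2.13, whereas Samples 4 and 5 had -0.37 and -0.29 in the first range and -0.66 and -0.52 in the other. Sample 3 thus held a broad shoulder near 10 Mb followed by a steep fall, and the others a shallow tail.

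**Figure D1:**
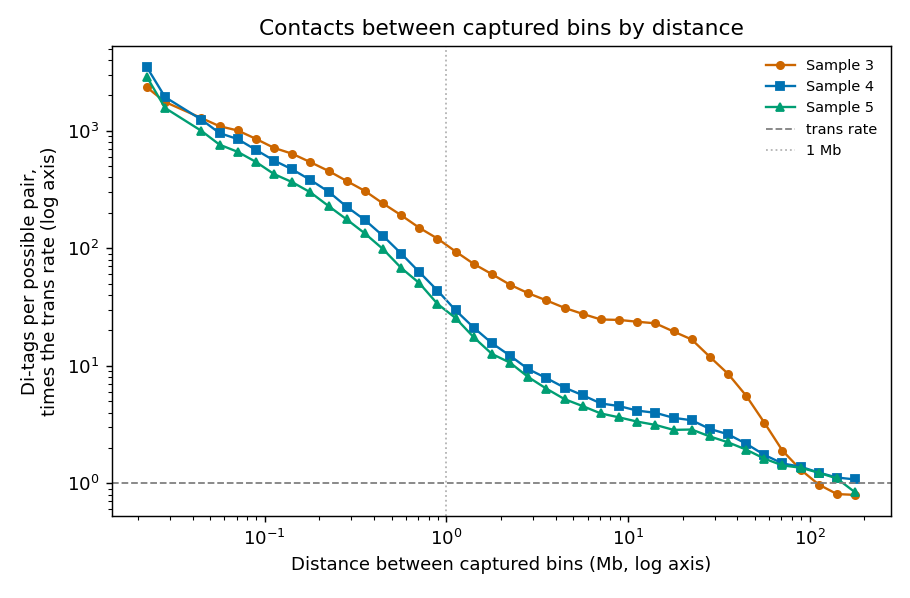
Di-tags per possible pair of captured bins, as a multiple of the trans rate of the same library (vertical, log axis), against the distance between the bins in Mb (horizontal, log axis), with 1 line per library. At the shortest distance Sample 3 lies lowest (2339 times the trans rate, against 3465 and 2866 in Samples 4 and 5). At 10 to 20 Mb it lies highest (21.8 times, against 3.87 and 3.08), and all lines end near the dashed trans rate.

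Orientation was uneven at the shortest distances, most in Samples 4 and 5. At 20 to 50 kb, di-tags with the left read on the plus strand and the right on the minus strand made up 22.8%, 17.2% and 17.4% of the contacts, and the reverse orientation 26.9%, 32.6% and 32.6%. Beyond 100 kb these orientations lay between 23.6% and 26.2% in all 3 libraries. Same-strand di-tags stayed at 48.6% to 51.2% at every distance. The number of copies of each contact in the lists with duplicates retained hardly moved with distance: the mean was 10.2, 9.06 and 8.24 copies at 20 to 100 kb and 10.6, 9.21 and 8.26 beyond 10 Mb.

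Far contacts, over 1 Mb, numbered 266590 in Sample 3, 60677 in Sample 4 and 52993 in Sample 5. These were 53.0% (exact binomial 95% interval 52.9% to 53.1%, which covers counting error only), 27.6% and 29.1% of the contacts, with a mean of 36.6% ± 14.2 (SD, n = 3). Without Sample 3, with bins chosen on the others, the mean was 29.5%. Of 9381962 possible far pairs of captured bins, 2.69%, 0.635% and 0.554% were seen, nearly always by a single di-tag (94.7%, 98.4% and 98.5% of those seen). Nearer pairs, from 20 kb to 1 Mb, were sampled far better, with 42.1%, 28.4% and 24.4% of 284474 possible pairs seen.

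Far contacts took a smaller share between captured bins than among other cis di-tags at least 20 kb apart. With 1 captured end the far share was 68.3%, 44.0% and 46.2%, and with none 70.9%, 46.1% and 47.5%. The difference from di-tags with 1 captured end was -15.3, -16.4 and -17.1 percentage points (mean -16.3 ± 0.911 SD, n = 3), and from those with none -17.9, -18.4 and -18.4 (mean -18.2 ± 0.27). It was lower in 3 of 3 libraries in both comparisons, and the exact two-sided sign-flip permutation test gave p = 0.25 for each, the smallest that 3 libraries allow. The possible pairs differed too: 97.1% of possible captured pairs lay over 1 Mb, against 98.7% with 1 captured bin and 98.5% with none. Per possible pair, contacts up to 1 Mb were 29.3, 86.5 and 80.2 times as frequent as far contacts between captured bins, 34.2, 93.7 and 85.7 times with 1 captured end, and 27.2, 77.7 and 73.4 times with none. Captured pairs thus lay between the other classes in every library by this measure. The decay exponent from 20 kb to 1 Mb was higher than that of the other classes in Sample 3 and lower in Samples 4 and 5, with mean differences of -0.03 ± 0.05 and -0.10 ± 0.09 (SD, n = 3, exact sign-flip permutation p = 0.5 for both).

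**Figure D2:**
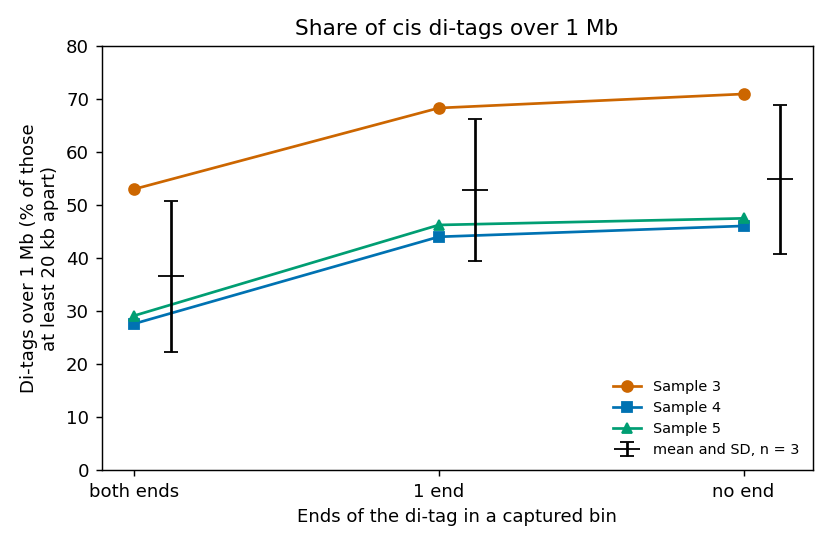
Share of cis di-tags over 1 Mb among those at least 20 kb apart (vertical, percent), by how many ends lie in a captured bin (horizontal), with 1 line per library and the mean and SD over the 3 libraries in black. The share is lowest with both ends captured in each library (53.0%, 27.6% and 29.1%) and Sample 3 lies above the others in all 3 classes.

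To find single far pairs with many contacts, each pair was set against an expected count made from its distance and the trans ends of both bins, by a cumulative Poisson test with Benjamini-Hochberg adjustment over all possible captured pairs. In Sample 3, 90 far pairs had an adjusted p under 0.05 (0.000959% of those tested), in Sample 4 46 (0.00049%) and in Sample 5 67 (0.000714%). Many of these pairs held di-tags at almost identical positions. A near copy is defined here as a di-tag with the same strands as another of its library and both ends within 10 bp of it. Of the far pairs called, 71 of 90 (78.9%), 35 of 46 (76.1%) and 30 of 67 (44.8%) held a near copy. Among far pairs that also had at least 2 di-tags but were not called, 1117 of 13189 (8.47%), 221 of 888 (24.9%) and 163 of 715 (22.8%) did. With at least 3 di-tags the shares were 81.2%, 86.1% and 44.8% of pairs called and 21.8%, 47.8% and 37.5% of pairs not called, the latter over 1014, 23 and 24 pairs. A near copy adds to the count that the call rests on, so these shares are a description. Over all far contacts, most of which were alone in their pair, 0.992%, 0.941% and 0.862% had a near copy. With near copies joined into 1 di-tag, 53, 30 and 24 of these pairs were left with a single di-tag, and 14, 10 and 33 far pairs remained called (0.000149%, 0.000107% and 0.000352%).

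Near copies had features in common. In 96.1%, 87.7% and 87.9% of the 3472, 1507 and 1253 near-copy links at least 1 end was identical, and in 230, 80 and 107 of them both ends were identical as listed. Between libraries they were rare: 20 to 32 far contacts of a library, 0.0075% to 0.0604%, had a near copy in another library. Within a group of near copies the most copied di-tag had a median of 10, 8 and 8 copies in the lists with duplicates retained and the least copied a median of 1. A member seen as a single copy was present in 69.8%, 59.2% and 61.4% of the 2476, 1203 and 951 groups. These di-tags all stand in the lists with duplicates removed, and how they arose was not tested. Joining them took out 2940, 1350 and 1098 contacts and left the far share at 53.0%, 27.6% and 29.2%.

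**Figure D3:**
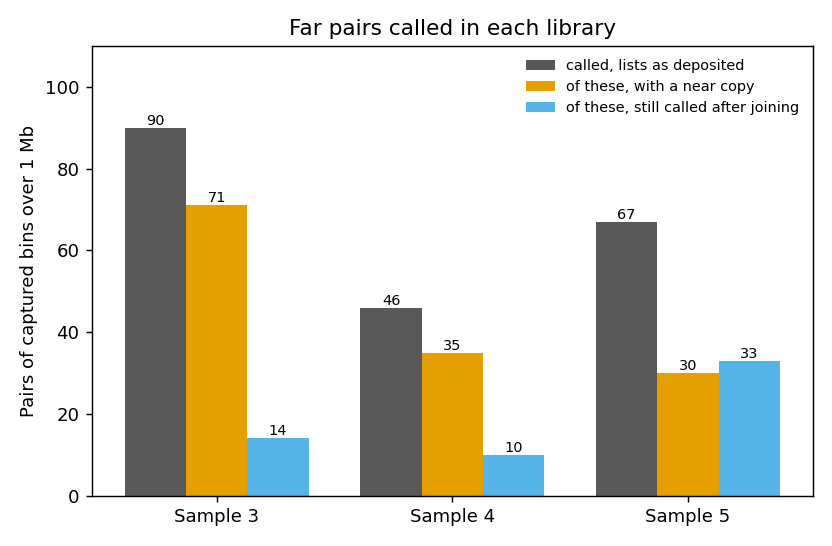
Number of far pairs of captured bins (vertical) called in each library (horizontal) with the lists as deposited (grey), those of them that hold a near copy (orange) and those still called after near copies were joined (blue). In Samples 3 and 4 most of the called pairs hold a near copy (71 of 90 and 35 of 46), in Sample 5 fewer (30 of 67).

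The far pairs called in all 3 libraries numbered 2 (2.13e-05% of those tested), and they share a bin. The bin chr1:85270000-85279999 met chr1:87480000-87489999, 2.21 Mb away, in 63, 81 and 118 di-tags of Samples 3, 4 and 5, against expected counts of 1.78, 0.261 and 0.229. The adjusted p was 5.53e-66, 7.41e-162 and 5.20e-264 by the cumulative Poisson test. Under a negative binomial test 0 far pairs were called in all libraries. The dispersion of that test was fitted within each distance class on all its pairs, the tested ones included. With near copies joined, 56, 72 and 92 di-tags were left. The count was higher in Samples 4 and 5 than in Sample 3, opposite to far contacts in general. At the coverage of these bins, a pair only 20 kb apart would be expected to give 54.99, 46.8 and 39.6 di-tags, or 81.2, 72.5 and 61.2 by the distance curve without the bins of very high coverage. The 63 di-tags of Sample 3 lay between these values, and the 81 and 118 of Samples 4 and 5 above both. With near copies joined, the 72 di-tags of Sample 4 lay between its values of 46.8 and 72.5. The adjoining bin chr1:87490000-87499999 met the same partner in 11, 26 and 36 di-tags, against 0.525, 0.105 and 0.0898 expected, and 16.2, 18.8 and 15.5 if it lay 20 kb away (23.9, 29.2 and 24.0 by the other curve). No other far pair had at least 2 di-tags in every library. The first bin had 834, 727 and 759 trans ends, against medians of 152, 164 and 175 over captured bins. Whether the assembly places these stretches as they lie in the cells was not tested, and genes are not named because no annotation of mm9 was used here.

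A further far pair was called in Samples 4 and 5 only. The bins chr8:19120000-19129999 and chr8:23040000-23049999, 3.92 Mb apart, were joined by 5 and 8 di-tags against 0.0328 and 0.0332 expected, with adjusted p of 5.88e-05 and 1.83e-11 by the Poisson test and no near copies. In Sample 3 there was none against 0.132 expected. A count of 0 allows up to 3 di-tags, or 22.7 times the expected count, so a smaller excess was not detectable there. The counts of Samples 4 and 5 were 152 and 241 times the expected ones. At the coverage of these bins, a pair 20 kb apart would be expected to give 5.48, 8.97 and 9.44 di-tags in Samples 3, 4 and 5. A difference between the libraries was not tested.

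Nearer pairs, from 20 kb to 1 Mb, were called 78, 191 and 252 times (0.0274%, 0.0671% and 0.0886% of 284474), mostly at the lower end of that range, with a median distance of 30, 20 and 30 kb. Of these, 56 were called in both Sample 4 and Sample 5, which is 29.3% of the list of Sample 4 and 22.2% of that of Sample 5. Sample 3 shared 7 pairs with Sample 4 and 5 with Sample 5, or 8.97% and 6.41% of its list. With near copies joined, 62, 168 and 224 were called (0.0218%, 0.0591% and 0.0787%). Calls changed more without bins of very high coverage. With the 374 captured bins that were among the 0.1% of covered bins with the most ends in any library left out, expected counts at 20 kb rose 1.48-, 1.55- and 1.55-fold and the calls came to 37, 60 and 123. Pairs that involve those bins were then no longer tested, so these calls are out of fewer than 284474 pairs. The part of the lost pairs and of the raised expected counts in the change was not tested.

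In all 3 libraries 3 nearer pairs were called (0.00105%). For nearer pairs no values after thinning or under a negative binomial test are given. The longest joined chr15:72900000-72909999 with chr15:73010000-73019999 over 110 kb, in 10, 11 and 7 di-tags against 0.706, 0.456 and 0.446 expected, a 14.2-, 24.1- and 15.7-fold excess. It was the 1 nearer pair still called in each library without the bins of very high coverage, with adjusted p of 0.00186, 8.34e-06 and 0.0387. The bins chr2:84670000-84679999 and chr2:84690000-84699999 had 28, 24 and 20 di-tags against 2.93, 3.99 and 3.46 expected. Without those bins the adjusted p in Sample 5 was 0.0510. The third pair, chr11:87600000-87609999 with chr11:87620000-87629999, had 20, 27 and 19 against 2.81, 3.82 and 3.62, and could not be tested there because 1 of its bins is among those left out.

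The nearer pairs with the most di-tags in every library lay in the chr11:3030000-3099999 stretch and were far below expectation. The bins chr11:3030000-3039999 and chr11:3050000-3059999 gave 128, 152 and 134 di-tags against 1983, 2781 and 2286 expected, a ratio of 0.0646, 0.0547 and 0.0586. Most ends of these bins were trans. Neighbouring bins shared many di-tags, yet far fewer than an expected count made from the product of their trans ends.

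Far contacts were spread over nearly all captured bins. Only 2, 303 and 428 bins had none, the median bin had 26, 6 and 5, and the 10% of bins with the most held 23.6%, 24.6% and 24.9%. A hub is used here for a bin whose far contacts exceed the sum of the expected counts of its far pairs, by the Poisson test over all 17920 bins. Sample 3 had 2505 hub bins (14%), Sample 4 had 81 (0.452%) and Sample 5 had 103 (0.575%). With near copies joined there were 2487 (13.9%), 81 and 101 (0.564%). Under an adjusted p threshold of 0.001 in the Poisson test 836, 12 and 19 of the 17920 bins were called. A negative binomial test called 5, 3 and 12. The counts moved with the number of contacts: with each library thinned to the number of Sample 5, they were 561, 42 and 103. They moved with trans ends as well. The 3584 bins with the fewest trans ends held 1021, 44 and 53 of the hub bins, and the 3584 with the most held 154, 6 and 9. Summed over those bins, far contacts were 1.40, 1.37 and 1.42 times the expected count in the first set and 0.810, 0.824 and 0.827 times in the last, so the expected counts rose more steeply with trans ends than the contacts did. Part of both patterns is fixed by how the bins were chosen: a bin with few trans ends reached the threshold of all ends only with many cis ends, and far contacts are among these.

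Bins called as hubs in all 3 libraries numbered 8 (0.0446%). In 2 of them a large part of the far contacts came from the chromosome 1 pair described above, 63, 81 and 118 in each. Without this top partner, chr1:87480000-87489999 kept 55, 27 and 17 far contacts against 84.2, 16.5 and 14.6 expected in all, and chr1:85270000-85279999 kept 82, 48 and 50 against 102.8, 19.6 and 17.3, with 11, 26 and 36 of them to the adjoining bin chr1:87490000-87499999. The other 6 had many partners with few di-tags each.

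At chr8:123100000-123109999 there were 89, 29 and 23 far contacts against 43.9, 12.2 and 9.22 expected, with 79, 29 and 22 partner bins and at most 3 di-tags to any partner. The bin chr2:130100000-130109999 had 72, 28 and 28 against 43.9, 10.8 and 10.2, and 63.6%, 74.1% and 74.1% of its partners lay over 10 Mb away. The bin chr7:25210000-25219999 had 60, 18 and 16 against 28.6, 5.87 and 3.77, and its trans ends exceeded those of 59.3%, 47.0% and 14.4% of captured bins. These 3 remained called in all libraries when the bins of very high coverage were left out, with adjusted p from 1.73e-05 to 0.0429.

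The other 3 had few trans ends in Samples 4 and 5, and each missed the threshold in 1 library without the bins of very high coverage. The bin chr17:34100000-34109999 had 46, 13 and 13 far contacts against 17.7, 3.75 and 2.72, with partners at a median of 7.43, 1.94 and 2.29 Mb. Its trans ends exceeded those of only 1.32%, 0.346% and 0.0223% of captured bins. At chr10:79400000-79409999 there were 43, 12 and 15 against 20.5, 3.33 and 2.30, and at chr7:20150000-20159999 36, 13 and 12 against 20.7, 3.30 and 3.15. In Sample 5 the chromosome 17 bin had 157 ends and the chromosome 10 bin 166, against a threshold of 152. Far contacts are among these ends, so the excess of both bins is partly fixed by how the bins were chosen. All 8 bins stayed called with near copies joined, but none was called in all libraries after thinning, under an adjusted p threshold of 0.001 or under a negative binomial test.

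**Figure D4:**
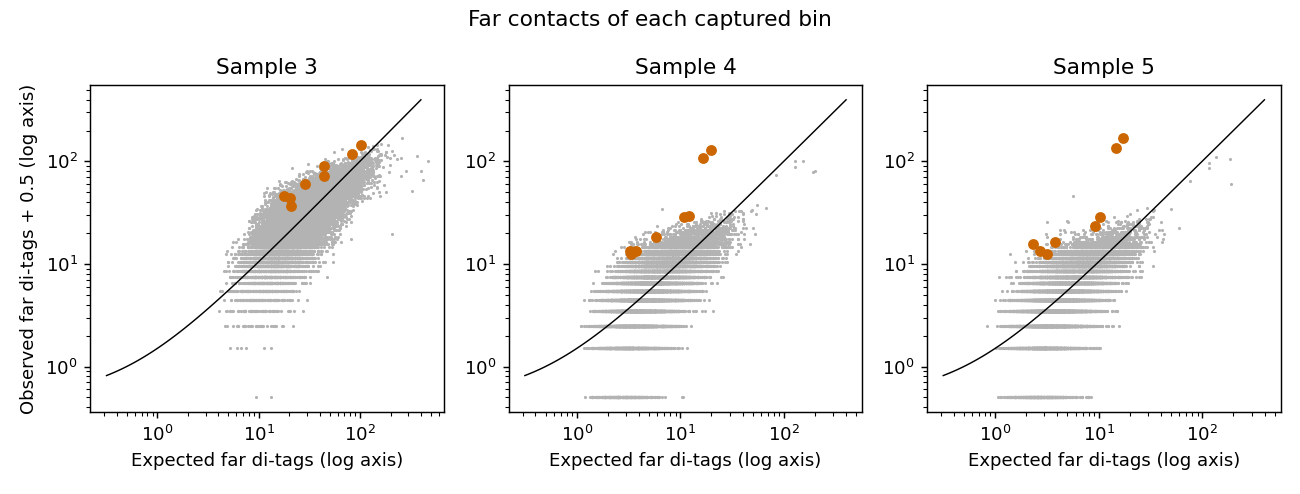
Far di-tags observed for each of the 17920 captured bins, plus 0.5 (vertical, log axis), against the number expected from distance and trans ends (horizontal, log axis), with 1 panel per library. Orange points are the 8 bins called in all 3 libraries, the line marks equal numbers, and in Samples 4 and 5 the chromosome 1 bins are the orange points highest above it (129 and 108 observed in Sample 4, 168 and 135 in Sample 5).

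Pairs seen again in another library were set against the share of all possible pairs that the other library held. Of the pairs of captured bins 20 to 100 kb apart seen in a library, 75.2% to 85.5% were seen in another, where 72.3% to 82.2% of all possible pairs were seen. From 100 kb to 1 Mb the share was 25.6% to 51.8% against 18.2% to 36.9%, and over 1 Mb it was 1.36% to 6.95% against 0.554% to 2.69%. Pairs seen again thus became rarer with distance together with pairs seen at all. The highest far shares were those of pairs of Samples 4 and 5 looked up in Sample 3, which has the most contacts; between Samples 4 and 5 they were 1.70% and 1.95%. The mean over the library pairs was 3.37%, and 1.73% without Sample 3 and with bins chosen on the others.

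The number of far pairs seen again was also set against the number that distance and trans coverage give. Without the 374 bins of very high coverage, 3447 far pairs were shared by Samples 3 and 4, against 3531 from the expected counts, 2853 against 2961 by Samples 3 and 5, 824 against 747.7 by Samples 4 and 5, and 112 against 112.0 by all 3. With all bins the numbers were 4139 against 4565, 3428 against 3839, 1012 against 1045, and 165 against 233.9 for all 3. The close match for all 3 libraries together thus depends on leaving those bins out. All these expected numbers rest on the expected counts whose ratio to the contacts changed with trans ends, as given above. The part of this in the match was not tested. Pairs 20 to 100 kb apart were shared by all libraries 17302 times against 15207, and those from 100 kb to 1 Mb 11400 times against 11725.

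**Figure D5:**
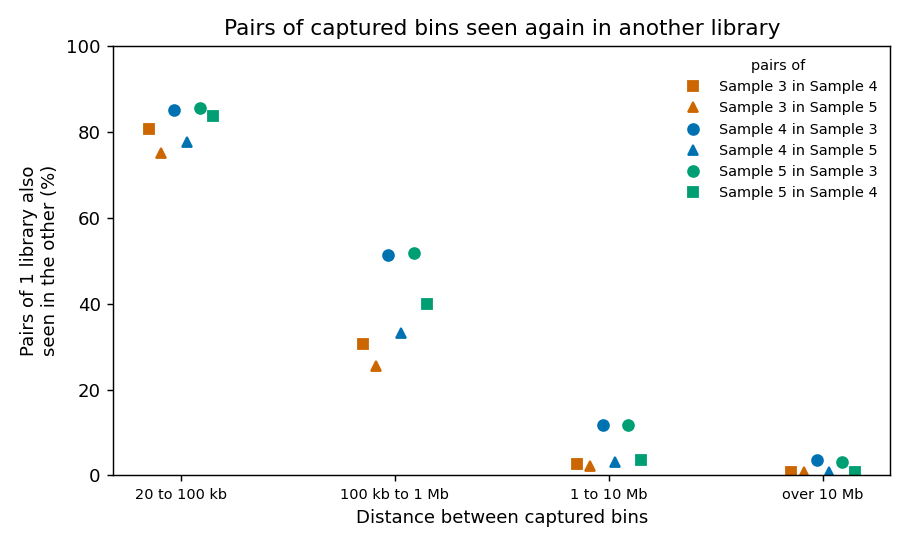
Share of the pairs of captured bins seen in 1 library that were also seen in another (vertical, percent), by distance between the bins (horizontal). Colour marks the library whose pairs were looked up and the symbol the library they were looked up in (circle for Sample 3, square for Sample 4, triangle for Sample 5). The share falls from 75.2% to 85.5% at 20 to 100 kb to at most 3.59% over 10 Mb, while the share of all possible pairs seen in the other library falls from 72.3% to 82.2% to at most 1.78%.

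At a coarser scale the ratios of observed to expected far contacts were correlated between libraries. Over single bins with at least 5 expected far contacts in both libraries compared, the log2 ratio of observed to expected far contacts correlated with Pearson's r of 0.39 between Samples 3 and 4 (n = 10146 bins), 0.34 between 3 and 5 (n = 8563) and 0.29 between 4 and 5 (n = 8396). Contacts more than 3 Mb apart were also summed by pairs of 1 Mb blocks, whose starts are then at least 3 Mb apart. Over 870 of 106299 block pairs with at least 5 expected in each library, very highly covered bins included, r was 0.51, 0.49 and 0.50. These are descriptions over bins and blocks of the same 3 libraries, which share bait design, base composition and the fall of the ratio with trans ends given above, and no p is given. The part of each in the correlation was not tested. Of the 870 block pairs, 230 were above expectation in all libraries, 238 below in all and 402 mixed. Neither these counts nor r over blocks is given without the bins of very high coverage. Pairs that share a block are not independent. The block chr11:3000000-3999999, which holds such bins, is in more than 1 of the 238.

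The block pairs with the most extreme ratios, picked after their values were seen, lay from 3 to 51 Mb apart. The blocks chr10:80000000-80999999 and chr10:127000000-127999999 were joined by 98, 42 and 26 di-tags against 37.1, 11.3 and 9.47 expected. The neighbouring block chr10:126000000-126999999 had 59, 25 and 27 with the same partner, against 25.4, 8.33 and 6.69. On chromosome 7, chr7:29000000-29999999 and chr7:52000000-52999999 were joined by 148, 40 and 22, against 59.0, 7.65 and 6.01, and on chromosome 8 chr8:73000000-73999999 and chr8:124000000-124999999, 51 Mb apart, by 27, 18 and 13 against 9.06, 6.33 and 5.51. At shorter range, chr2:158000000-158999999 and chr2:163000000-163999999, 5 Mb apart, had 65, 23 and 13 against 29.4, 7.44 and 6.23, and chr11:87000000-87999999 and chr11:101000000-101999999, 14 Mb apart, 79, 17 and 27 against 38.2, 6.37 and 5.26. The ratio was at least 2 in all libraries for 7 block pairs and at most 0.5 in all libraries for 14. At the other end, chr3:92000000-92999999 and chr3:96000000-96999999, 4 Mb apart, were joined by 10, 0 and 1 di-tags, against 37.5, 6.96 and 6.19. The block chr11:3000000-3999999, which holds the highly covered stretch, had 9, 2 and 1 di-tags with chr11:24000000-24999999, 21 Mb away, against 36.1, 6.56 and 5.53, and 50, 14 and 7 with chr11:6000000-6999999, 3 Mb away, against 229.1, 41.4 and 35.99.

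Relative to the expected counts, far contacts were more frequent between blocks rich in captured bins than between rich and poor ones. Blocks of 1 Mb were put into 3 classes by their captured bins: sparse (1 to 3), middle (4 to 9) and dense (10 to 58). More than 3 Mb apart, contacts between dense blocks were 1.096, 1.071 and 1.053 times the expected number, and those between a sparse and a dense block 0.681, 0.749 and 0.830 times. Middle with dense blocks had 0.897, 0.904 and 0.931, and middle with middle 0.947, 1.04 and 1.02. Pairs of sparse blocks varied between libraries (0.766, 1.16 and 0.914), with 656, 208 and 150 di-tags behind them. The order of dense with dense above sparse with dense held in 3 of 3 libraries, at 3 to 20 Mb and over 20 Mb, and without the bins of very high coverage (1.11, 1.08 and 1.06 against 0.684, 0.748 and 0.821). The ratios carry the fall with trans ends given above, and the classes rest on bins chosen by coverage, far contacts included. The part of these in the order was not tested.

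Chromosomes differed moderately. Far contacts stood above expectation in all libraries on chromosomes 1, 2, 5, 7, 10 and 12, with the highest ratio of 1.21 on chromosome 2 in Sample 3, and below in all on chromosomes 3, 9, 11, 14, 16, 17, 18 and 19. The lowest ratio was that of chromosome 14 in Samples 3 and 4 (0.790 and 0.837, with 0.889 in Sample 5) and that of chromosome 11 in Sample 5 (0.876, with 0.854 and 0.856 in the others). Without the bins of very high coverage, chromosomes 10 and 12 were no longer above in all, at 0.990 and 0.997 in Sample 3, chromosome 8 was above in all (1.23, 1.04 and 1.02) and chromosome 13 below in all (0.870, 0.941 and 0.993). Chromosome 14 was then the lowest in each library (0.797, 0.842 and 0.885), with chromosome 11 at 0.893, 0.885 and 0.912. With all bins, chromosome 8 was at 1.204 in Sample 3 and at 1.02 and 0.992 in Samples 4 and 5. The chromosome ratios also carry the fall with trans ends given above, and the same distance curve was used for every chromosome. The part of these in the differences was not tested.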

How the data were processed

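The authors deposited, 2 di-tag lists for each of 3 CHi-C libraries, with duplicates kept or removed by HiCUP, aligned to mm9 with Bowtie 1.1.0 according to the submitters' processing notes. A line places both reads of 1 di-tag by chromosome, base and strand, so a measured value here is the number of lines. Lists with duplicates removed gave all main values; the others gave copies per di-tag. Bins were 10 kb, and distance is between bin starts. Distance curves used 10 classes per decade. The expected count of a pair was the curve of its distance class, per product of the trans ends of both bins. One-sided Poisson tests required at least 2 di-tags for a pair and were adjusted per library over 9666436 pairs (at least 20 kb apart) or 17920 bins. The lists hold no molecular identifiers. Each interval was computed within 1 library, so it covers counting error only. The members, and the rules for pairs and bins to be named (called in all libraries; hubs with at least 10 far di-tags; the 3 nearer pairs with the highest smallest count), were chosen with earlier results of these data known. Calls in Samples 4 and 5 only and 1 Mb blocks were added after their values were seen, as were near copies. No annotation of mm9 was used, so gene lists were not analysed here. Python 3.11.15, numpy 2.4.6, scipy 1.17.1 and matplotlib 3.10.9 were used.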

Additional observations from a re-analysis of the deposited data

How the results depend on the processing

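Of 130 values recomputed under alternatives, 96 stayed within the spread between libraries or within 1.5 times the main count, and 34 moved. That spread includes Sample 3 and is wide. A far share of 29.5% without Sample 3, against 36.6%, counted as within it because the SD was 14.2. The tally is therefore a description. With the 85th percentile there were a mean of 497271 contacts per library (14.7% of cis di-tags) and 5 hub bins, and with the 95th 110541 (3.26%) and 4. Bins of 20 kb gave 4 far pairs with at least 2 di-tags in every library, 1 called in all libraries, and 8.61% of far pairs seen again, against 3.37%. Without the bins of very high coverage these counts were 0 and 0, since the chromosome 1 bins are then left out, and 3 hub bins stayed. With duplicates retained there were 2917151 contacts (13.1%), 113 far pairs with at least 2 di-tags, 42 called and 2299 hub bins. Thinned to Sample 5, 181909 contacts (a mean of 6.02% of the cis di-tags before thinning) gave 1 far pair called in all libraries and 0 hub bins. Hub bins were 67 with distance alone, 3 with coverage by all ends, 0 under a threshold of 0.001 and 0 under a negative binomial test, which also called 0 far pairs, although it called 9, 8 and 24 far pairs and 5, 3 and 12 hub bins in the single libraries. The dispersion of that test was fitted within each distance class for pairs and over all bins for hubs, those tested included. A pair with a very high count raises the dispersion it is tested against, so the test cannot decide how strong such a pair is. Leaving out 1 library at a time gave 10 to 22 far pairs with at least 2 di-tags and 6 to 59 hub bins: 10 and 6 without Sample 3, 18 and 38 without Sample 4, 22 and 59 without Sample 5. Joining near copies left the values over the 3 libraries together within these bounds, but cut the far calls of single libraries to 14, 10 and 33. No comparison of conditions was possible because all libraries form 1 group, and only classes of di-tags were compared within libraries. Nearly all far pairs were seen by 1 di-tag. Thinned to Sample 5, far calls of the single libraries were 3, 30 and 67, against 90, 46 and 67.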
